A study of Mus musculus with 2 samples.

Results

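The genes described here are the 65 mouse genes of Wnt and Hedgehog signalling whose symbols name a ligand, receptor, intracellular transducer, transcription factor or inhibitor of either pathway: the Wnt, Fzd, Rspo, Lgr4 to Lgr6, Dkk and Sfrp families, Lrp5 and Lrp6, Znrf3 and Rnf43, Ctnnb1, Apc, Axin1 and Axin2, the 4 TCF/LEF genes, and, for Hedgehog, genes such as Shh, Ptch1, Smo, the 3 Gli genes, Hhip and Sufu. They were taken by symbol and not by level, and 53 of them had reads, among 18168 annotated genes with reads in either library. They account for 212 of 104489 transcript models in replicate 1 and 218 of 140263 in replicate 2. The study sequenced full-length transcripts of whole adrenal gland from male mice of the F1 hybrid strain B6CASTF1/J, a cross of C57BL/6 and CAST mice, at 25 days of age, with no treatment named. Both libraries belong to 1 group, as replicates 1 and 2, so there is no condition to compare. The labels of the libraries and of the tissues name the animals differently and share a donor record, so the spread between the libraries may be technical and p-values measure only the difference between these 2 libraries.

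Wnt proteins bind a Frizzled receptor together with Lrp5 or Lrp6, which stops the destruction complex of Axin and Apc from degrading β-catenin, so that β-catenin can act with TCF/LEF factors in the nucleus. R-spondins strengthen the signal by binding Lgr receptors and removing the E3 ligases Znrf3 and Rnf43, which otherwise clear Frizzled from the surface. Hedgehog ligand relieves the block that Ptch1 places on Smo, and Gli factors, restrained by Sufu, then change transcription. In the adrenal cortex, R-spondin 3 from the capsule and Wnt4 from the outermost zone, the zona glomerulosa, maintain that zone, while Shh made by subcapsular cells signals to Gli1-positive cells of the capsule.

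Replicate 1 held 752432 reads in annotated genes and replicate 2 held 1210671, and levels are reads per 1000000 of these gene reads (CPM). A gene with 0 reads is limited to the value of 3 reads, 3.99 CPM in the first library and 2.48 CPM in the second. The tissue label fits the 10 adrenocortical genes (led by Cyp11a1 and Cyp21a1; 64273 and 26537 CPM in sum), 8 glomerulosa genes (Kcnk3 and Cyp11b2; 4008 and 1245 CPM), 3 genes of the transient X-zone (Akr1c18 and Thrb; 1591 and 205 CPM) and 8 chromaffin genes (Chgb and Chga; 10047 and 7523 CPM), all of which had reads in both libraries. Capsule and stroma genes (Col3a1 and Dcn) summed to 1519 and 1180 CPM with 0 and 1 of 11 at 0, endothelial genes (Plvap and Egfl7) to 671 and 527 CPM and adipocyte genes (Cidea and Cfd) to 4285 and 2821 CPM. The libraries stood apart in other tissue: 11 hepatocyte genes (Alb and Serpina3k) stood at 276 CPM with 7 at 0 in replicate 1 but at 53122 CPM in replicate 2, and 9 muscle genes (Atp2a1 and Acta1) to 4129 CPM and 0.826 CPM, with 8 at 0 in replicate 2. Kidney tubule genes were absent in both libraries for 6 of 7, the other, Aqp2, having 2 reads in replicate 2. Whole tissue was sequenced, so zones were not separated, and fewer cells of a type cannot be told apart from less RNA per cell.

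Of the 65 genes, 45 had reads in both libraries, 48 in replicate 1 and 50 in replicate 2. The 12 without a read were Wnt1, Wnt3, Wnt3a, Wnt7a, Wnt8a, Wnt10a, Wnt10b, Wnt16, Rspo2, Dkk1, Dkk4 and Gli2. The 56 Wnt genes summed to 1300 and 749 CPM in replicates 1 and 2, and the 9 Hedgehog genes to 175 and 95.0 CPM. These sums depend on the number of genes in each group. By mean level, the median gene stood at 4.56 CPM among Wnt genes and 4.15 CPM among Hedgehog genes. Wnt genes thus took 88.1% of these reads in replicate 1 (95% exact binomial interval 86.1% to 90.0%) and 88.7% in replicate 2 (86.6% to 90.6%). No difference in this share between the libraries was detected (Fisher's exact test, two-sided, adjusted p = 1 over 10 gene pairs), while the summed levels of both pathways were lower in replicate 2 (log2 ratio -0.79 ± 0.07 and -0.88 ± 0.18, counting SE). Per kilobase of the longest annotated transcript, the mean levels ran from 59.5 CPM for Wnt4 and 44.3 CPM for Ctnnb1 through Smo (18.8), Axin1 (17.4), Tcf7 (17.3), Lgr4 (17.3), Fzd1 (11.5), Fzd8 (9.36) and Dkk3 (8.07) to Fzd9 (6.95), with the other 43 detected genes below these.

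**Figure D1:**
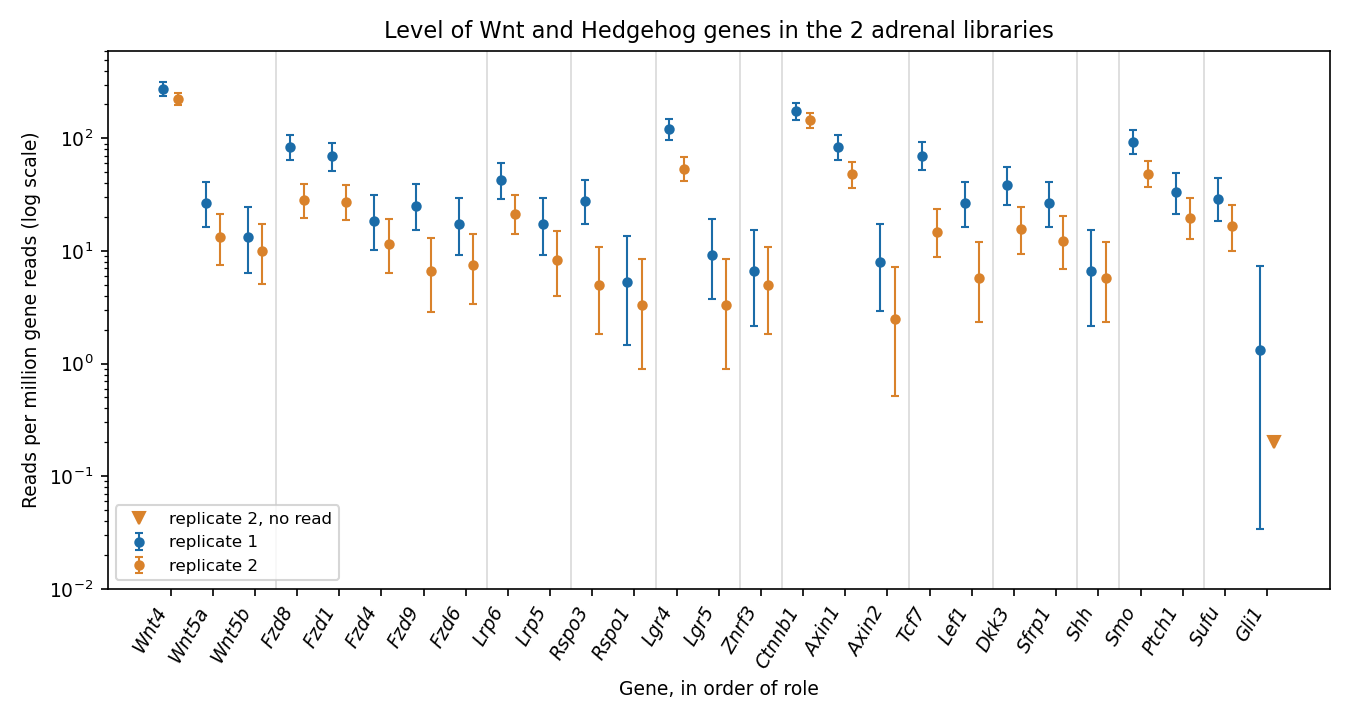
Level of each gene with 20 or more reads, and of 6 further genes, in reads per 1000000 gene reads on a log axis, with genes in order of role, grey lines between roles, exact 95% counting intervals as bars and a triangle for a gene without a read. Wnt4 and Ctnnb1 are highest in both libraries, and the intervals of Rspo3, Tcf7 and Lef1 are among those that do not overlap between the libraries; the height of the triangle is arbitrary.

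Among the 19 Wnt ligands, 1 gene dominated. Wnt4, the ligand of the glomerulosa (chromosome 4, 137277489 to 137299726, plus strand, mm10), had 207 reads in replicate 1 and 271 in replicate 2, or 275 and 224 CPM (249 ± 36.2 CPM, SD, n = 2). It ranked 586 of 15242 genes with reads in replicate 1 and 747 of 16852 in replicate 2. Its log2 ratio of replicate 2 to replicate 1 was -0.30 ± 0.13 (counting SE) and it was not called different (adjusted p = 0.0687, Fisher's exact test with Benjamini-Hochberg adjustment over 11382 genes). Wnt4 held 83.8% of all Wnt ligand reads in replicate 1 (95% exact interval 78.6% to 88.2%) and 84.7% in replicate 2 (80.3% to 88.5%), with no difference detected (adjusted p = 1, Fisher's exact test).

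Wnt5a, which acts mainly outside the β-catenin branch, had 20 and 16 reads (19.9 ± 9.45 CPM), and its relative Wnt5b had 10 and 12 (11.6 ± 2.39 CPM). Per kilobase of transcript, the level of Wnt4 (59.5 ± 8.64 CPM) stood above those of Wnt5b (4.89 ± 1.01 CPM) and Wnt5a (2.84 ± 1.35 CPM) in both libraries. The other 8 detected ligands had between 1 and 8 reads in both libraries together, led by Wnt11 (2 and 6) and Wnt6 (0 and 6). No read of Wnt1, Wnt3 or Wnt3a, the ligands often used to study the β-catenin branch, was seen.

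Wnt5a reads also showed a splice site that GENCODE M21 does not hold. In both libraries 1 read, of 16 and of 11 that cross the intron, used a donor that leaves out the last 105 bases of an exon, chr14:28513287-28513391. The stretch is coding and a whole number of codons (35), and it is shown because the same new site was read in both libraries. The bases left out are in capitals, with 20 bases of exon on either side, from the GENCODE M21 transcript Wnt5a-201 on mm10, plus strand. The stretch begins with GT.
Wnt5a: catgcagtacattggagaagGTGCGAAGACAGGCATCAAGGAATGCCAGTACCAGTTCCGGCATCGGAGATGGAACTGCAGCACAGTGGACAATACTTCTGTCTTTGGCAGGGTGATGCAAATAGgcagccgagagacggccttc

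The reads of Wnt4 followed the annotation closely. The 5-exon transcript Wnt4-201 held 186 of 207 reads (89.9%, exact interval 84.9% to 93.6%) and 238 of 271 (87.8%, 83.3% to 91.5%), and unspliced reads of the genomic class added 6 and 16. Wnt5a-201, annotated at 7010 bases, was assigned 14 and 10 reads. Reads were counted by their assigned model, and the ends of single reads were not examined. Wnt5b was split between its annotated transcripts (3 and 5 reads) and a 5-exon chain with 1 unannotated intron, chromosome 6, 119448273 to 119448682, that had 4 reads in replicate 1 and 1 in replicate 2.

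All 10 Frizzled receptor genes had reads, 9 of them in both libraries. Fzd8 had 63 and 34 reads (83.7 and 28.1 CPM) and Fzd1 had 52 and 33 (69.1 and 27.3 CPM), so both were high in replicate 1. Fzd9 had 19 and 8 reads (25.3 and 6.61 CPM), Fzd4, which is also the receptor for norrin, 14 and 14 (15.1 ± 4.98 CPM) and Fzd6 13 and 9 (12.4 ± 6.96 CPM). Per kilobase, the mean level of Fzd1 was 11.5 CPM, of Fzd8 9.36 CPM and of Fzd9 6.95 CPM. These 3 genes are single-exon genes, so a spliced read cannot tell their RNA from DNA or unspliced reads. Between the libraries, Fzd8 (log2 ratio -1.57 ± 0.31 SE, adjusted p = 1.35e-06), Fzd1 (-1.33 ± 0.32) and Fzd9 (-1.88 ± 0.59) were called lower in replicate 2 by Fisher's exact test, and the other 4 tested were not.

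Most Fzd3 reads were not of its long transcript. Fzd3-202, of 12734 bases, had 3 reads in replicate 1 and 1 in replicate 2, while a 4-exon form with the annotated start, of 1534 bases and ending 42.8 kb before the gene's end, had 8 and 7. Of the remaining Frizzled genes, Fzd2 had 3 and 10 reads, Fzd7 3 and 5, Fzd5 3 and 4 and Fzd10 0 and 1. Fzd2 was the only tested gene of the set with more CPM in replicate 2 (log2 ratio 0.90 ± 0.89 SE), and it was not called.

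The co-receptor Lrp6 had 32 and 26 reads (42.5 and 21.5 CPM) and Lrp5 13 and 10 (17.3 and 8.26 CPM). Lrp6 gave the larger share of reads in both libraries, with Lrp5 at 28.9% of the pair in replicate 1 (exact interval 16.4% to 44.3%) and 27.8% in replicate 2 (14.2% to 45.2%). With known transcripts alone, Lrp5 had 7 and 2 reads and Lrp6 had 2 and 2. The order thus turned in replicate 1 and the pair was equal in replicate 2, on few reads. The mean share of Lrp5 was then 63.9%. The known 23-exon transcript Lrp6-201, annotated at 9368 bases, was assigned 2 reads and 1 read. A 2-exon form that starts 52 bases after the gene's start and ends 94.3 kb before its end, 1543 bases long, had 14 and 12 reads, and single-exon genomic reads, nearly all at the gene's 3′ end, had 15 and 6. Lrp5-201, also of 23 exons, was assigned 7 and 2 reads.

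The R-spondin Rspo3, the capsular ligand (chromosome 10, 29452416 to 29535867, minus strand), had 21 reads in replicate 1 and 6 in replicate 2, or 27.9 and 4.96 CPM, with intervals of 17.3 to 42.7 and 1.82 to 10.8 CPM that do not overlap. Its log2 ratio was -2.41 ± 0.65 (SE) and it was called lower there (Fisher's exact test, adjusted p = 0.000210). Rspo1 had 4 and 4 reads, Rspo4 0 and 1 and Rspo2 none. Rspo3 made up 84.0% of Rspo3 and Rspo1 reads in replicate 1 (exact interval 63.9% to 95.5%) and 60% in replicate 2 (26.2% to 87.8%), a difference within counting error (raw p = 0.186, adjusted p = 1). Rspo3 reads were almost all assigned to 1 known transcript: Rspo3-201 held 21 of 21 and 5 of 6. Capsule and stroma genes summed to 1519 and 1180 CPM, and the calls among the 9 tested were 4 lower and 0 higher on total gene reads, 1 and 1 with TMM factors and 0 and 1 with size factors. Over all genes tested, 25.3% were called lower and 11.5% higher on total gene reads. The shares were 13.7% and 17.7% with TMM factors and 12.2% and 19.3% with size factors. The part of the capsule and stroma genes in the Rspo3 result was not tested.

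Of the R-spondin receptors, Lgr4 was the abundant one. It had 91 and 65 reads (121 and 53.7 CPM), a log2 ratio of -1.17 ± 0.23 (SE), and was called lower in the second library (Fisher's exact test, adjusted p = 4.39e-06). Lgr5, a marker of stem cells in other epithelia, had 7 and 4 reads and Lgr6 6 and 1. Lgr4 gave 92.9% of Lgr4 and Lgr5 reads in replicate 1 (exact interval 85.8% to 97.1%) and 94.2% in replicate 2 (85.8% to 98.4%), and per kilobase the mean levels were 17.3 CPM against 1.32 CPM. The 18-exon Lgr4-201 held 73 of 91 reads (80.2%) and 43 of 65 (66.2%), shares not called different by Fisher's exact test (adjusted p = 0.179 over 4194 genes). An annotated 117-base Lgr4 exon that carries no coding sequence in the annotation was skipped by all 77 and 45 reads that crossed it.

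The E3 ligases were rare. Rnf43 had 8 and 10 reads (9.45 ± 1.68 CPM) and Znrf3, whose loss enlarges the mouse cortex, 5 and 6 (5.80 ± 1.19 CPM). No difference in their shares was detected, with Znrf3 at 38.5% of the pair in replicate 1 (exact interval 13.9% to 68.4%) and 37.5% in replicate 2 (15.2% to 64.6%). Rnf43 reads were mostly single-exon genomic reads of its 3′ end (4 and 7). Znrf3-201 was assigned 2 and 1 reads.

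Ctnnb1, the gene of β-catenin (chromosome 9, 120929216 to 120960507, plus strand), was the second gene of the set, with 132 and 176 reads (175 and 145 CPM; 160 ± 21.3 CPM). Its log2 ratio was -0.27 ± 0.17 (SE) and it was not called (adjusted p = 0.215, Fisher's exact test). The 15-exon Ctnnb1-201 held 60 of 132 reads (45.5%, exact interval 36.8% to 54.3%) in replicate 1 and 49 of 176 (27.8%, 21.4% to 35.1%) in replicate 2. Most of its other reads were incomplete splice matches, which carry a run of the annotated introns and miss the 5′ exons: the most frequent, of 6 exons, had 8 and 39 reads. A NIC chain of 15 exons, a combination of annotated introns that no annotated transcript holds, had 8 and 2 reads.

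Axin1, the scaffold of the destruction complex (chromosome 17, 26138688 to 26195811, plus strand), had 63 and 58 reads (83.7 and 47.9 CPM), a log2 ratio of -0.80 ± 0.26 (SE; adjusted p = 0.00946, Fisher's exact test, called lower in replicate 2). It was not called with TMM factors (adjusted p = 0.189, exact binomial test) or size factors (0.287). Axin2, a feedback target of β-catenin and a common reporter of its activity, had 6 and 3 reads (7.97 and 2.48 CPM) and was too low to test. Axin1 gave 91.3% of reads of the pair in replicate 1 (exact interval 82.0% to 96.7%) and 95.1% in replicate 2 (86.3% to 99.0%), and per kilobase the mean levels were 17.4 CPM against 1.23 CPM. Of 9 Axin2 reads, 1 was of the known transcript Axin2-201 and 2, 1 in each library, shared a NIC chain of 11 exons.

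Axin1 was the member in which an exon choice was read most often. Transcripts with and without a 108-base coding exon, chr17:26192516-26192623, were about equally frequent: 32 of 62 reads (51.6%, exact interval 38.6% to 64.5%) included it in replicate 1 and 25 of 52 (48.1%, 34.0% to 62.4%) in replicate 2, not called different (adjusted p = 1 over 9 exons, Fisher's exact test). Both forms are annotated, as Axin1-201 with the exon (27 and 14 reads) and Axin1-203 without it (23 and 18). A separate choice, not in the annotation, joined the first exon to the third across chromosome 17, 26139042 to 26173639, and so left out the 959-base exon that holds the annotated start codon. The 959-base exon was included by 54 of 59 reads (91.5%, 81.3% to 97.2%) in replicate 1 and by 36 of 51 (70.6%, 56.2% to 82.5%) in replicate 2, with a raw p of 0.00602 by Fisher's exact test. Its adjusted p was 0.0542 over the 9 exons and 0.0241 over the 4 of them that any read included, so the call rests on the exons counted. Most of the reads without it fell in 2 chains, of 9 and 10 exons, each with 2 reads in replicate 1 and 7 in replicate 2, which again differ by the 108-base exon.

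Apc, the other scaffold, had 11 and 2 reads and was called lower in replicate 2 by Fisher's exact test (adjusted p = 0.00352). Of the 11 reads, 9 lay in models with introns of the neighbouring gene Srp19, which itself had 30 and 61 reads. A 2-exon model with 7 of them and a 3-exon model with 1 began past the annotated end of Apc. They began 113533 and 113369 bases from its start, in a gene that spans 101629 bases. Only an 18-exon model with 1 read ran from the Apc start to past its end. Without those 9 reads Apc had 2 and 2 and was not called, so its level and call rest on reads with Srp19 introns. The 16-exon transcript Apc-202, of 12811 bases, was read in full once, in replicate 2.

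Of the nuclear factors, Tcf7 was the most abundant, with 53 and 18 reads (70.4 and 14.9 CPM) whose intervals, 52.8 to 92.1 and 8.81 to 23.5 CPM, do not overlap. Lef1 had 20 and 7 reads (26.6 and 5.78 CPM), Tcf7l2 8 and 10 and Tcf7l1, mainly a repressor, 7 and 7. Tcf7 (log2 ratio -2.22 ± 0.39 SE, adjusted p = 8.37e-09) and Lef1 (-2.14 ± 0.62, adjusted p = 0.00102) were called lower in replicate 2 by Fisher's exact test, and Tcf7l1 and Tcf7l2 were not. Per kilobase the mean level of Tcf7 (17.3 ± 15.9 CPM) was above those of Lef1 (4.43 ± 4.02 CPM), Tcf7l2 (2.54 ± 0.452 CPM) and Tcf7l1 (2.48 ± 0.819 CPM), and it was the highest of the 4 in both libraries. For Tcf7 the divisor was its longest annotated transcript, 2471 bases, while its leading chain was 3912 bases long. A longer divisor would give Tcf7 a lower level per kilobase. Lef1-201 held 16 of 20 Lef1 reads in replicate 1 and 2 of 7 in replicate 2.

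Most Tcf7 reads, 50 of 71, were of the NIC or NNC class, and 18 were labelled as incomplete splice matches. Only 2 of 71 Tcf7 reads were of a known transcript, both Tcf7-202 in replicate 1, although 63 of the 71 were spliced. The exon of 93 bases at chr11:52258853-52258945, present in the annotated transcripts Tcf7-201 and Tcf7-202, was included by 4 of 42 reads in replicate 1 (9.52%, exact interval 2.66% to 22.6%) and 3 of 15 in replicate 2 (20.0%, 4.33% to 48.1%). The libraries were not called different in this share (adjusted p = 1 over 9 exons, Fisher's exact test). The other 38 and 12 reads left its 31 codons out, among them the chains that join its neighbours across chromosome 11, 52257804 to 52260530. The leading chain, of 10 exons, had 20 and 8 reads and began 1398 bases upstream of the annotated gene start. A second chain, with 11 and 2 reads, carried a further unannotated intron, 52253986 to 52256257. Its reads were labelled NNC in replicate 1 and as incomplete splice matches in replicate 2, so that label did not always mean annotated introns.

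Exon skipping of the same kind was read in Dkk3, a secreted protein of the Dickkopf family that does not act on Lrp5 and Lrp6 as Dkk1 does. Its 84-base coding exon at chr7:112148961-112149044, 28 codons, was included by 12 of 20 reads in replicate 1 (60%, exact interval 36.1% to 80.9%) and 8 of 9 in replicate 2 (88.9%, 51.8% to 99.7%), intervals that overlap (adjusted p = 0.905 over 9 exons, Fisher's exact test). The 3 skipped exons are printed because each is a whole number of codons and each was left out by reads of both libraries. They are in capitals, 5′ to 3′ on the strand of the gene, with 20 bases of the neighbouring exons, from the GENCODE M21 transcripts Axin1-201 (plus strand), Tcf7-201 (minus strand) and Dkk3-201 (minus strand) on mm10.
Axin1: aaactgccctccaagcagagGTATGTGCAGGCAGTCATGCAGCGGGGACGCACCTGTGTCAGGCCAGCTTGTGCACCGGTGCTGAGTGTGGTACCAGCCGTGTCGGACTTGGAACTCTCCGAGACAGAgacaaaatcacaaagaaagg
Tcf7: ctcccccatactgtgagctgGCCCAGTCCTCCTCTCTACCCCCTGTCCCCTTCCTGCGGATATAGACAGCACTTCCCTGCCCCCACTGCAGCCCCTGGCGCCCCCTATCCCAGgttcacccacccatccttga
Dkk3: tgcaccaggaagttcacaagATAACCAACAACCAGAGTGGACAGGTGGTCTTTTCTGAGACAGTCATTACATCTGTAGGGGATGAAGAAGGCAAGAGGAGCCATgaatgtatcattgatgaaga
The GC content of the exon was 66.7% in Tcf7, 61.1% in Axin1 and 46.4% in Dkk3.

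**Figure D2:**
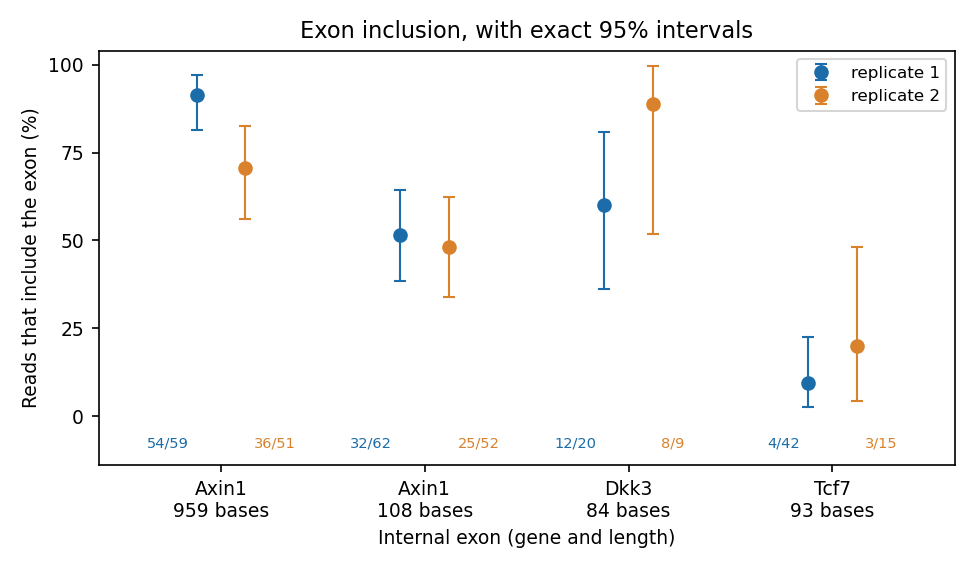
Share of spliced reads that include each coding exon, in percent, among the reads that cross it, with exact 95% intervals and the counts below. The 108-base exon of Axin1 is in 32 of 62 and 25 of 52 reads, and the 93-base exon of Tcf7 in 4 of 42 and 3 of 15.

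Among the secreted Wnt antagonists, Dkk3 had 29 and 19 reads (38.5 and 15.7 CPM; log2 ratio -1.28 ± 0.42 SE, adjusted p = 0.00936, called lower by Fisher's exact test) and Sfrp1, which binds Wnt proteins, had 20 and 15 (26.6 and 12.4 CPM, not called). Dkk3 was not called with TMM factors (adjusted p = 0.0809, exact binomial test) or size factors (0.110). The annotated 8-exon Dkk3-201 held 2 and 3 reads, and 7-exon models that lack the first exon held 7 and 5. Sfrp1-201 held 16 of 20 and 14 of 15 Sfrp1 reads. Sfrp2 had 4 and 5 reads, Dkk2 4 and 4, Sfrp4 4 and 2, and Sfrp5 2 and 2. Dkk1 and Dkk4, which block Lrp5 and Lrp6, had none.

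The Hedgehog ligand gene Shh (chromosome 5, 28456815 to 28467256, minus strand) had 5 reads in replicate 1 and 7 in replicate 2, or 6.65 and 5.78 CPM (6.21 ± 0.610 CPM), and was not called (log2 ratio -0.24 ± 0.81 SE). Only 4 of these 12 reads were spliced, 2 of them in the known transcript Shh-201, both in replicate 2, and 8 were single-exon genomic reads, all but 1 of them at the 3′ end. Its receptor Ptch1, also a target of the pathway, had 25 and 24 reads (33.2 and 19.8 CPM; 26.5 ± 9.48 CPM) and was not called (log2 ratio -0.74 ± 0.41 SE). Of the 49 Ptch1 reads, 31 were single-exon genomic reads that end at the gene's 3′ end (13 and 18), and 1 was of a known transcript, the 24-exon Ptch1-202.

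Smo, the transducer that Ptch1 inhibits, was the highest Hedgehog gene, with 70 and 59 reads (93.0 and 48.7 CPM). It was called lower in replicate 2 (log2 ratio -0.93 ± 0.25 SE, adjusted p = 0.00126, Fisher's exact test), but not with TMM factors (adjusted p = 0.0756, exact binomial test) or size factors (0.111). Per kilobase the mean level of Smo was 18.8 CPM, against 5.06 CPM for Sufu and 2.55 CPM for Ptch1, and Smo was the highest of the 3 in both libraries. Smo-201, of 12 exons, held 62 of 70 and 42 of 59 reads. Hhip, a decoy receptor for the ligand, had 5 and 2 reads.

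The Gli factors were barely detected. Gli1, the pathway's most used target gene, had 1 read, a 62-base genomic model in replicate 1, and none in replicate 2, Gli3 had 1 and 0, and Gli2 none in either library. For a count of 0 the limits of 3.99 and 2.48 CPM given above apply. Sufu, their cytoplasmic inhibitor, had 22 and 20 reads (22.9 ± 8.99 CPM) and was not called (log2 ratio -0.82 ± 0.44 SE). Gli1 thus made up 4.35% of Gli1 and Sufu reads in replicate 1 (exact interval 0.110% to 21.9%) and 0% in replicate 2 (up to 16.8%). Sufu-201 had 8 reads in replicate 1 and 0 in replicate 2, the shorter Sufu-203, which ends 11.9 kb before the gene's end, 2 and 4.

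Across the set, 30 genes had the 10 reads needed for a test, and 12 of them (Lgr4, Smo, Axin1, Fzd8, Fzd1, Tcf7, Lrp6, Dkk3, Fzd9, Lef1, Rspo3 and Apc) were lower and 0 higher in replicate 2 by Fisher's exact test with Benjamini-Hochberg adjustment. Over all 11382 genes tested, 25.3% were called lower and 11.5% higher. At an unadjusted p under 0.05 by Fisher's exact test, 15 genes of the set were lower and 0 higher. The share of all genes at that threshold was not counted. The median log2 ratio was -0.99 over the 30 genes and -0.34 over all genes tested, and 29 of the 30 lay below zero against 65.4% of all genes tested. By scaling that allows for the changed composition, 8 were lower and 0 higher (Lgr4, Fzd8, Fzd1, Tcf7, Fzd9, Lef1, Rspo3 and Apc), both with TMM factors, against 13.7% lower and 17.7% higher over all genes, and with DESeq2 size factors, against 12.2% and 19.3%. Under these scalings a gene that kept its level would sit at -0.35 (TMM) or -0.40 (size factors). The edgeR exact test was run on library totals, without TMM factors, at an assumed coefficient of variation of 0.2. It called 5 of the 12 lower (Apc, Fzd8, Lef1, Rspo3 and Tcf7), and the share of all genes that it called was not counted. Without the reads that hold Srp19 introns, Apc had too few reads to be tested.

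Fzd8, Lef1 and Rspo3 were called lower under each of the 11 settings tried, and Fzd1, Lgr4 and Tcf7 under 10. The 11 include the main test and a setting that changes Apc reads alone. All reuse the same 2 libraries, so they are not independent. The share of all genes called was counted only for the main test, TMM factors and size factors. For the other settings the counts of the set therefore have no share to stand beside. Tcf7 missed only the setting with known transcripts alone, where its 2 reads were too few to test. The lower calls ran beside adrenocortical markers at 64273 and 26537 CPM, glomerulosa markers at 4008 and 1245 CPM and X-zone markers at 1591 and 205 CPM. The median log2 ratio was -0.99 in the set, -1.02 in adrenocortical, -1.38 in glomerulosa and -2.76 in X-zone markers. It was -0.58 in capsule and stroma and in chromaffin markers, -0.51 in endothelial and -0.18 in adipocyte markers. Muscle markers stood at 4129 and 0.826 CPM and hepatocyte markers at 276 and 53122 CPM. Leaving genes over 10-fold different between the libraries out of the total, which removes 1.07% of gene reads of replicate 1 and 22.8% of replicate 2, still left 8 lower and 0 higher. The part of these markers in the result was not tested.

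**Figure D3:**
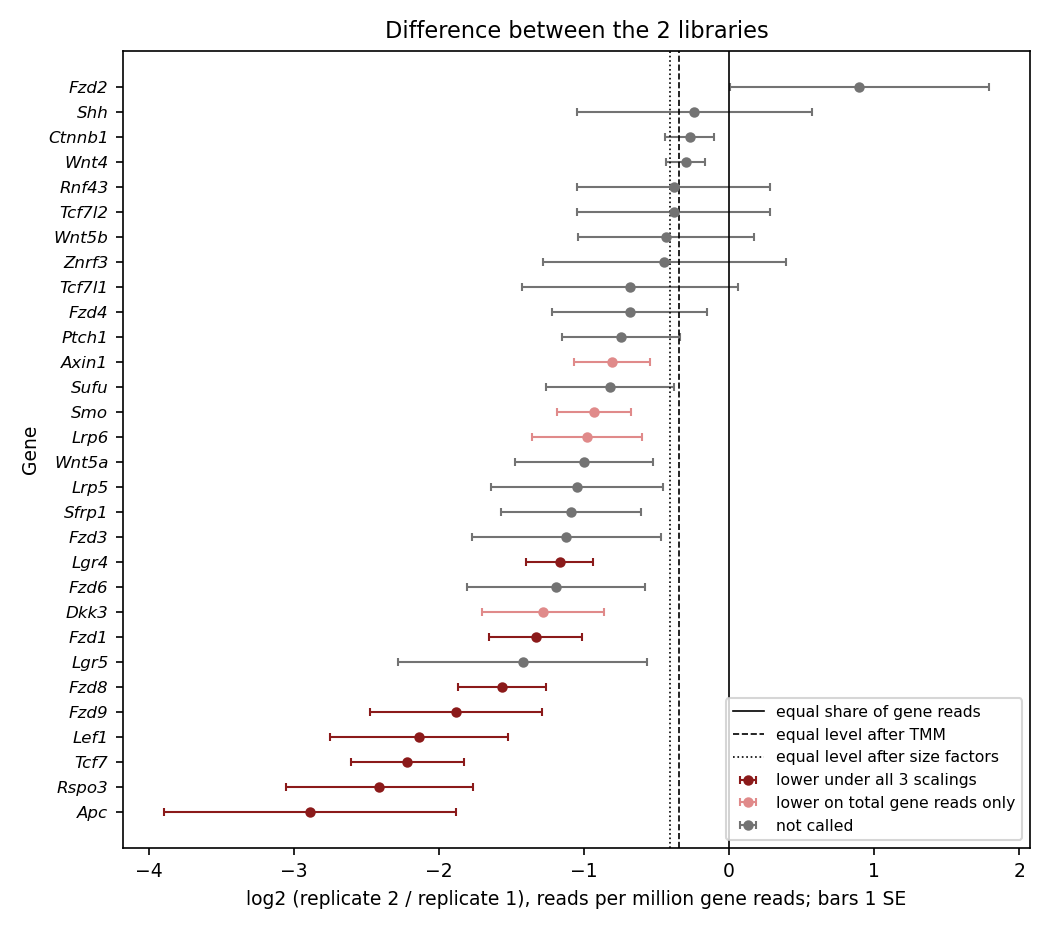
Log2 ratio of replicate 2 to replicate 1 for the 30 tested genes, with 1 counting SE, against lines for an equal share of gene reads and for no change under TMM (-0.35) and size factors (-0.40). Wnt4 and Ctnnb1 lie at these lines, Rspo3, Tcf7 and Lef1 lie below -2, and the lowest value, Apc, rests on reads that hold Srp19 introns.

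The reads of the set fell less often in known models than those of all genes. In the deposited classes, known models held 66.3% of reads in replicate 1 (exact interval 63.4% to 69.1%) and 58.8% in replicate 2 (55.7% to 61.8%), against 77.0% and 75.6% over all genes. Incomplete splice matches held 17.8% and 23.9%, against 9.44% and 11.9%, and genomic reads 6.31% and 10.1%, against 3.78% and 5.0%. NIC and NNC models, which recombine annotated splice sites or use new ones, together stood near the level of all genes, at 4.95% and 4.59% in replicate 1 and 4.21% and 3.03% in replicate 2.

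Known share fell with transcript length over all genes, so the set was set beside genes of like length, as a description. Over multi-exon genes with 20 or more reads, the median known share was 69.2% at 3000 to 5000 bases, 47.1% at 5000 to 8000 and 24.1% at 8000 or more. The 10 genes of the set in the first class had a median of 69.1%, the 3 in the second (Lgr4, Wnt5a and Fzd4) 69.4% and the 3 in the third (Lrp6, Lrp5 and Ptch1) 6.90%. The 2 under 3000 bases, Tcf7 (2.82%) and Wnt5b (36.4%), stood below the lower quartile of their class, 67.8%. Of the 18 multi-exon genes with 20 or more reads, 10 had over 50% of reads in known models and 3 (Lrp6, Tcf7 and Ptch1) under 10%.

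**Figure D4:**
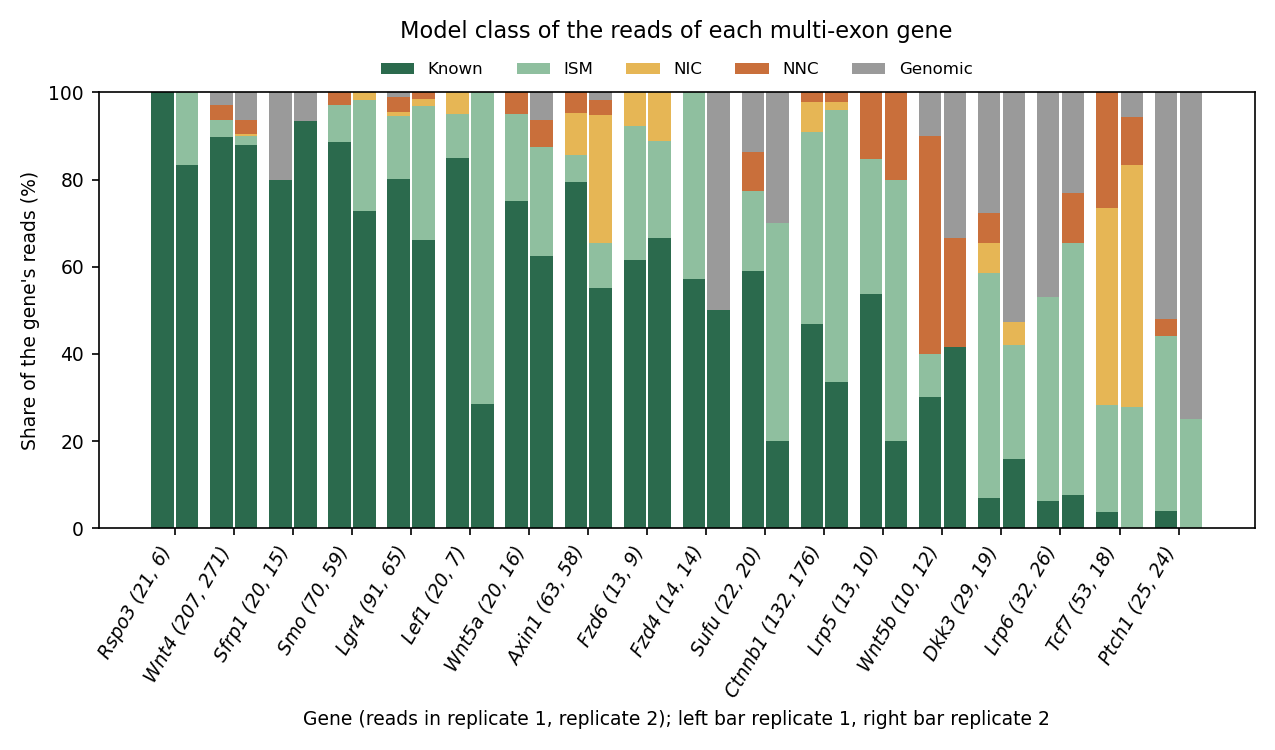
Share of each multi-exon gene's reads by model class, in percent, for the 18 genes with 20 or more reads, with replicate 1 on the left and replicate 2 on the right of each pair and the reads in brackets. Over both libraries together, known models hold over 50% of the reads of the 10 genes on the left, NIC models lead in Tcf7, and genomic reads lead in Ptch1.

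Use of the leading model could be tested in 7 genes of the set, and 4 differed between the libraries by Fisher's exact test (Ctnnb1, Ptch1, Sufu and Lrp6), against 25.3% of 4194 genes. The leading models of Ptch1 and Lrp6 are unannotated models whose identifiers exist in 1 library only, so their calls are set by the naming. With models grouped by intron chain in place of identifier, 1 of 7 differed (Ctnnb1, adjusted p = 0.0152), against 15.4% of 4620 genes. The leading groups of Ptch1 (13 of 25 and 18 of 24 reads) and Lrp6 (14 of 32 and 12 of 26) then gave adjusted p of 0.379 and 1, and that of Sufu, now its single-exon genomic reads, 0.553. Wnt4, Lgr4 and Axin1 were not called either way.

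Chains of the NIC or NNC class in at least 1 library, with reads in both, numbered 13, in 9 genes. They were among 92 chains of these classes in all, and 8 had 5 or more reads. The second Tcf7 chain and the Dkk3 chain were labelled as incomplete splice matches in the other library. Among these 8 were the 2 Tcf7 chains (28 and 13 reads in all), the Ctnnb1 chain (10), the 2 Axin1 chains without the start-codon exon (9 each), the Dkk3 exon skip (6) and the Wnt5b intron (5). The 5 with fewer reads lay in Hhip, Tcf7, Axin2, Wnt5a and Wnt5b.

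Other genes of the pathways were described from lists of 48 Wnt and 31 Hedgehog genes and 18 genes often induced by either signal. Of 37 tested Wnt genes, 11 were lower and 2 higher in replicate 2, against 25.3% and 11.5% of all genes tested. With TMM factors 6 were lower and 4 higher, against 13.7% and 17.7%. The counts were the same with size factors, against 12.2% and 19.3%. The median log2 ratio was -0.38 against -0.34 over all genes tested. Aes, a member of the Groucho corepressor family, had 625 and 653 reads and Csnk1a1, a kinase that primes β-catenin for degradation, 189 and 152, both called lower under all 3 scalings. Csnk1d, a related kinase, had 168 and 166 and was lower on total gene reads alone. Dvl1, which relays the signal from Frizzled, had 153 and 253 reads and was called only with TMM or size factors, as higher. Amer1, a membrane scaffold for Apc, had 0 and 16 reads, at least 3.31-fold higher in replicate 2 against the limit of 3 reads in replicate 1.

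Of 19 tested Hedgehog genes, 8 were lower and 1 higher, against 25.3% and 11.5% of all genes tested. With TMM factors 3 were lower and 1 higher, against 13.7% and 17.7%. The counts were the same with size factors, against 12.2% and 19.3%. The median log2 ratio was -0.69, against -0.34 over all genes tested. The co-receptor Gas1 had 262 and 285 reads and the co-receptor Boc 63 and 32; Boc was lower under all 3 scalings and Gas1 on total gene reads alone, as were Spop (396 and 481) and Cul3 (158 and 167), which degrade Gli proteins. Tulp3, a ciliary trafficking gene, had 20 and 6 reads (log2 ratio -2.34 ± 0.65 SE). Of 15 tested induced genes, 7 were lower and 1 higher (5 and 2 with either scaling), beside the same shares over all genes. The median of the induced genes was -0.86, against -0.34 over all genes tested. This list overlaps the cell type lists: Cyp11b2, Dab2 and Hsd3b6 are also glomerulosa markers and Nr0b1 an adrenocortical one. Among its lower calls were Cyp11b2, Dab2 and Hsd3b6, so its result is not separate from that of the markers. Cyp11b2, the aldosterone synthase of the glomerulosa, had 466 and 309 reads, Dab2, a glomerulosa marker, 468 and 48 (log2 ratio -3.96 ± 0.22 SE), Tbx3 98 and 62 and Cd44 40 and 8, all lower under all 3 scalings, while Ccnd2, a G1 cyclin, had 66 and 171 and was higher under all 3.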

How the data were processed

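RNA of 2 whole adrenal gland libraries was read as long, full-length transcripts. The authors deposited, for each library, read counts per transcript model with its TALON class, and the model annotation on mm10 with GENCODE M21, per the file headers and the submitters' processing notes; these notes give no step by which unannotated models were named across libraries. The counts are whole, unnormalized reads. Models are Known, ISM (incomplete splice match), NIC and NNC (new combinations or new splice sites), Genomic, Antisense or Intergenic. All of the first 5 classes were summed per gene and divided by gene reads; spike-ins (1.39% and 1.33% of reads) and models outside annotated genes (3.84% and 4.85%) stayed out. Only 1 library's labels state the RNA input. The depths were 793999 and 1290342 reads, so 1 read is 1.33 or 0.826 CPM.

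Genes with 10 or more reads in both libraries together were compared by a two-sided Fisher's exact test, and p-values were adjusted over all these genes by the Benjamini-Hochberg method (threshold 0.05). This compares 2 libraries, not conditions. Log2 ratios add 0.5 reads to each count and carry counting SEs. Shares have exact Clopper-Pearson 95% intervals, which cover counting error only; reads carry no molecular identifiers in the files. Exons were counted as included or skipped in reads whose introns cross them. Genes share reads with overlapping neighbours, and antisense models were not added to any gene. Named are members with 20 or more reads and Rspo1, Shh, Gli1, Axin2, Lgr5 and Znrf3 whatever their reads, with the others by counts; leading models of members with 20 reads in each library; NIC or NNC chains in both libraries with 5 or more reads; and, of each pathway list, the 4 genes with most reads and called genes over 4-fold different. Other models and exons were singled out after their values were seen. The members and the pathway lists were chosen with earlier results of these data known. Alternatives were TMM factors (edgeR 4.0.16), DESeq2 1.42.0 size factors, an edgeR exact test with an assumed coefficient of variation of 0.2, other classes, read minimums and thinning; scripts were tested on simulated data. Python 3.11.15, scipy 1.17.1, pandas 2.3.3, numpy 2.4.6, matplotlib 3.10.9 and R 4.3.3 were used. Some items of the set are not reported here.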

Additional observations from a re-analysis of the deposited data

Results flagged for a closer look

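Antisense models, which no comparison above uses, lay over 30 of the genes, in 127 models of which 10 are spliced. For 9 genes they held more reads than the limit of 3 in both libraries. Tcf7l2 had 12 antisense reads in replicate 1 and 28 in replicate 2, against 8 and 10 of its own. Znrf3 had 15 and 15, against 5 and 6 of its own. Wnt5a had 6 and 14, and Lgr4 had 16 and 15. Lrp5 and Lrp6 each had 6 and 8, Sufu had 7 and 8, Fzd3 had 7 and 4, and Ptch1 had 6 and 4. The gene counts above leave these reads out.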

How the results depend on the processing

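No paired analysis was possible because both libraries belong to 1 group. Leaving out a library leaves nothing to test between libraries. The 12 genes called lower became 5 with the edgeR exact test and a coefficient of variation of 0.2. The share of all genes called by that test was not counted. In every setting 0 genes of the set were called higher. With known models only, the gene pairs whose share was apart from 50% in both libraries fell from 7 to 4. The mean share of Lrp5 in Lrp5 and Lrp6 reads went from 28.3% to 63.9%, with Lrp5 ahead in replicate 1 alone and few reads. The known share of the set, 62.6% on average, was 69.5% over models with 2 or more reads and 68.1% without genomic reads. The 4 calls of leading model use, among 7 genes tested, became 1 of 7 when grouped by intron chain. With known models only, 2 genes could be tested (Axin1 and Ctnnb1) and 0 were called, against 92 of 1611 over all genes. Of the 4 genes called, Ptch1, Sufu and Lrp6 could not be tested in that setting. The 13 recurrent new chains became 6 when 2 reads in each library were required. The other pathway genes, each counted once although 2 stand in 2 lists, changed from 25 lower and 4 higher to 14 lower and 6 higher with TMM factors and likewise with size factors. The cause of these changes was not tested. The exclusion of genes over 10-fold different, of Apc reads with Srp19 introns, the 2 scalings of the other pathway genes and the adjustment over 4 exons were chosen after seeing the data. Depth limits genes under 10 reads, such as Gli1 and Axin2.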
